A study of Mus musculus with 12 samples.

Results

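The growth hormone and IGF axis of the liver was described through 10 genes found by their symbols in the platform annotation of the arrays. They are the growth hormone receptor gene Ghr, the signal transducers Stat5a and Stat5b, the feedback inhibitors Socs2 and Cish, the hormone gene Igf1, and the genes of its carrier proteins Igfals, Igfbp1, Igfbp2 and Igfbp4. All 10 were found, in 11 of the 21789 transcript clusters (the array's unit for a gene) that carried exactly 1 gene symbol, and Socs2 had 2 clusters. Where a gene had 2, the cluster with the higher mean over the 12 arrays was used. Liver RNA of 12 mice was measured on Affymetrix mouse Gene 1.0 ST arrays in 4 groups of 3, namely hypothyroid mutants (replicates 5, 6 and 7), euthyroid mutants (2, 3 and 4), hypothyroid controls (17, 18 and 20) and euthyroid controls (13, 14 and 15). The mutants are L-NCoR∆ID mice, which carry an altered form of the nuclear receptor corepressor NCoR in the liver, and the series asks what NCoR does to genes that thyroid hormone raises or lowers. As background on this line that the labels do not give, Cre under the albumin promoter removes some nuclear receptor interaction domains of NCoR in hepatocytes. The sources used here do not give how hypothyroidism was produced, the genotype and strain of the controls, or the age and sex of the mice.

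Growth hormone from the pituitary binds its receptor on hepatocytes, the receptor-bound kinase JAK2 phosphorylates STAT5, and STAT5 enters the nucleus and activates genes such as Igf1, Igfals, Socs2 and Cish. SOCS2 and CIS, the product of Cish, then dampen signalling by the receptor. IGF1 made by the liver circulates bound to IGF binding proteins, most of it in a complex with IGFBP3 and the acid labile subunit encoded by Igfals, while IGFBP1 is known as a binding protein that insulin represses and fasting induces. Thyroid hormone acts through nuclear receptors that bind copies of the core motif AGGTCA, and in rodents it is also known to be needed for normal growth hormone production in the pituitary. Neither hormone was measured in these mice.

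The start regions of 3 genes are printed because they carry the letters of the pathway: Igfals and Stat5a, which had the lowest adjusted p of the 10 genes between thyroid states, and Cish, which holds a pair of STAT motifs and was not called. They were picked after the motifs had been searched. They show 250 bases before an annotated start site and 30 bases from it, read 5′ to 3′ on the gene's strand, from RefSeq (GRCm38.p6). Capitals mark matches to TTCNNNGAA, the core motif of STAT5, and to AGGTCA or its reverse complement TGACCT, the core motif of thyroid hormone and related receptors.
Igfals: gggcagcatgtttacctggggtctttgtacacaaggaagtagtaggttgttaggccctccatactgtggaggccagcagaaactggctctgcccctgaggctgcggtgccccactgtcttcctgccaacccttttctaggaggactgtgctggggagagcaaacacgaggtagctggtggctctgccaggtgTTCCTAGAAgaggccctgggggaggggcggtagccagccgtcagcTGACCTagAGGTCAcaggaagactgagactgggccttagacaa
Stat5a: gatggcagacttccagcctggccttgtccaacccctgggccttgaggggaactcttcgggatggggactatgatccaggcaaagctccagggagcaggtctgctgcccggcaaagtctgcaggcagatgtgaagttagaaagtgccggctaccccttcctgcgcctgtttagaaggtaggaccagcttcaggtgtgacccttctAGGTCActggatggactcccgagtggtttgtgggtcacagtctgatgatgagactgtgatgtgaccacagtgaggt
Cish: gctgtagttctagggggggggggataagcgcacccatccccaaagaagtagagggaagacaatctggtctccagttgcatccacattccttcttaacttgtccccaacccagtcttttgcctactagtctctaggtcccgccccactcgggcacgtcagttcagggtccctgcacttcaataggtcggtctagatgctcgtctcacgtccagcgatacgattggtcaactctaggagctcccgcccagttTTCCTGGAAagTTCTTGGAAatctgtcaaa

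The Igfals stretch lies at chr17:24877981-24878260 (plus strand) and belongs to the second of 3 annotated start sites. Its STAT motif begins 58 bases before the start (position -58), and its 2 receptor motifs begin at positions -13 and -5. The Stat5a stretch lies at chr11:100859406-100859685 (plus strand), from the first of 2 start sites, with 1 receptor motif at position -46. The Cish stretch lies at chr9:107296409-107296688 (plus strand), and its 2 STAT motifs begin at positions 1 and 12, at the start of the transcript. Of the 10 genes, 9 had an entry, with 15 windows of 300 bases (250 before and 50 after each start). Both strands were searched, and overlapping matches were counted. TTCNNNGAA was found in 3 of the 15 windows, belonging to 2 genes, Igfals and Cish. AGGTCA was found in 6 of the 15, belonging to 4 genes, namely Igfals, Stat5a, Stat5b and Igf1. Among 32851 windows of the same table, 8.3% held the first motif, 0.457% held it more than once, and 16.3% held the second. The classic thyroid hormone response element, 2 copies of AGGTCA in the same direction with 4 bases between them, was found in 0 of the 15 windows and in 0.0152% of all. These matches describe letters in these windows, and no binding was measured.

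The labels and the tissue were checked first. Dio1, a liver deiodinase gene that thyroid hormone induces, lay at 2.83 to 3.72 in hypothyroid mutants, against 9.51 to 9.74 in euthyroid mutants, and at 3.21 to 3.25 in hypothyroid controls, against 8.14 to 8.91 in euthyroid controls (log2 signal, n = 3 each). Albumin lay between 13.4 and 13.6 on every array. Xist lay between 9.25 and 9.97 on all 12 arrays, and 3 Y-linked genes (Kdm5d, Uty and Eif2s3y) lay between 1.57 and 2.54, the pattern of females. As background, growth hormone secretion differs between the sexes in rodents. The altered gene, Ncor1, was not analysed here, since the annotation lists no cluster under that symbol. Array medians lay between 4.16 and 4.32. The SD of all log2 values on an array was 2.29 to 2.35 in hypothyroid mice and 2.22 to 2.31 in euthyroid mice, with the lowest value in control euthyroid replicate 14 and the highest in mutant hypothyroid replicate 7. Results that turn on either of these 2 arrays are given with and without it.

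Of the 10 genes, 5 fell in hypothyroid mice when both genotypes were averaged: Igfals, Stat5a, Igfbp4, Igf1 and Igfbp2. None of the 10 was called higher. Of all 21789 clusters, 6.04% were called in this comparison (limma, adjusted p under 0.05), 1.87% lower and 4.18% higher. That count, 1317 clusters, depended on single arrays: leaving out euthyroid control 13 gave 3579, and leaving out hypothyroid mutant 7 gave 680. All 10 genes lay at or above percentile 63.2 of the mean level. When only clusters at or above the median level were tested, 1567 of those fewer clusters were called, a larger share than 6.04%. The median log2 difference of the 10 genes was -0.50, and that of all clusters was -0.02. The median of the absolute differences was 0.60 for the 10 genes and 0.14 for all clusters. In each of these 5 genes all 6 hypothyroid mice lay below all 6 euthyroid mice, which held for 1.13% of all clusters. In whole liver, fewer cells of a type and less RNA per cell cannot be told apart.

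**Figure D1:**
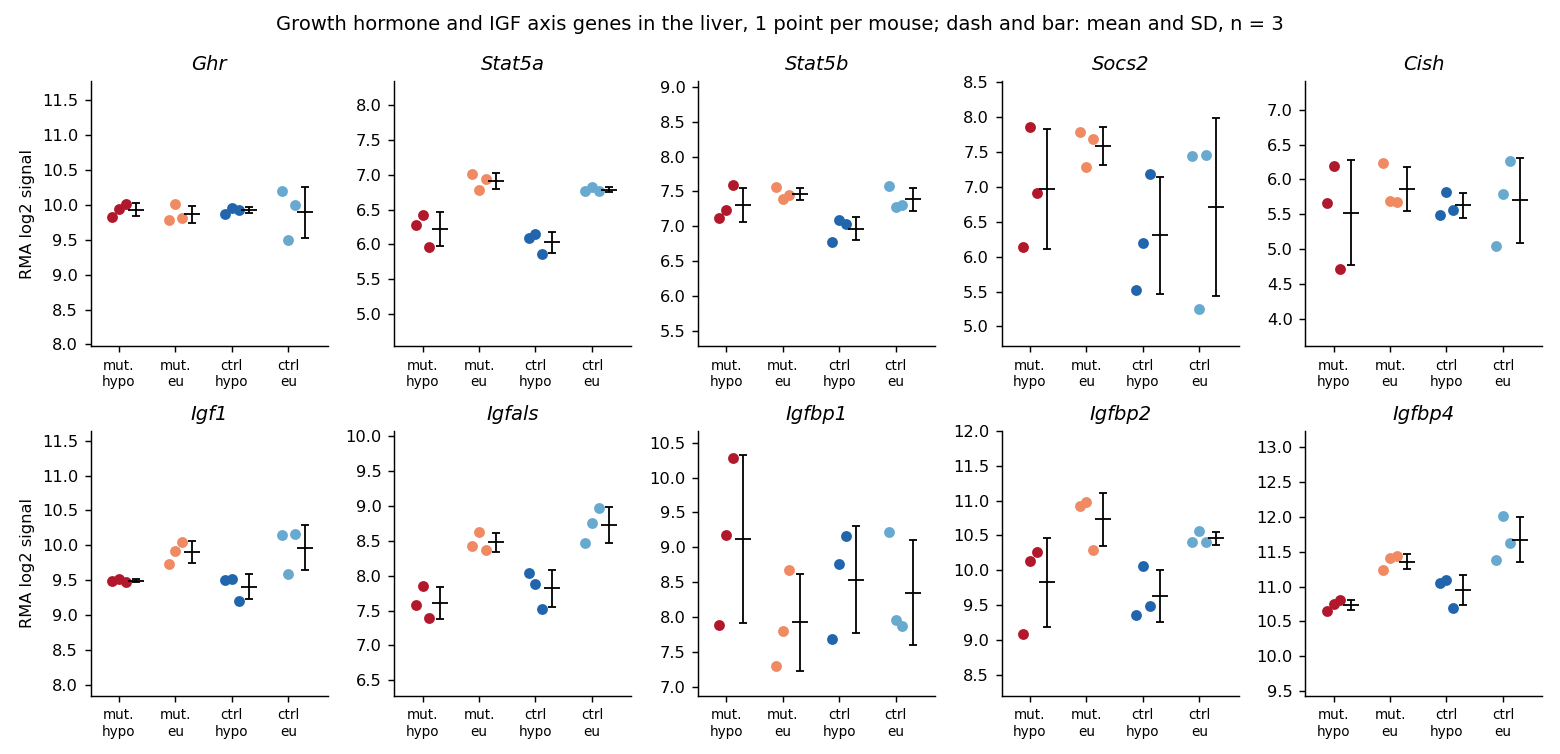
RMA log2 signal (y axis) of the 10 genes in each mouse, by group (x axis: hypothyroid mutants, euthyroid mutants, hypothyroid controls, euthyroid controls). Each point is 1 mouse and the dash with its bar is the mean and SD of 3 mice; all panels span the same number of log2 units, so that the separation of Igfals and Stat5a by thyroid state can be set against the scatter of Socs2 and Igfbp1.

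Igfals encodes the acid labile subunit, which hepatocytes make and which keeps IGF1 in the circulation. Its log2 signal was 7.58, 7.86 and 7.39 in hypothyroid mutants and 8.43, 8.63 and 8.37 in euthyroid mutants. In hypothyroid controls it was 8.04, 7.88 and 7.53, and in euthyroid controls 8.46, 8.75 and 8.97. The highest hypothyroid mouse (8.04) thus lay below the lowest euthyroid mouse (8.37). Igfals fell by 0.87 ± 0.17 (SE) in mutants (adjusted p = 0.0231) and by 0.91 ± 0.17 in controls (adjusted p = 0.0168). Averaged over genotypes it fell by 0.89 ± 0.12 (adjusted p = 0.000514), which is 1.85-fold lower. That call was kept under all 19 alternative settings run for the average, the one that adjusts for array SD included (adjusted p = 0.0488). The call in mutants was lost without any 1 of the 3 euthyroid mutants, and without hypothyroid mutant 5 or 7 (adjusted p up to 0.137). In controls it was lost when euthyroid replicate 15 or hypothyroid replicate 18 or 20 was left out (adjusted p up to 0.0905).

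Stat5a encodes 1 of the 2 STAT5 proteins that carry the growth hormone signal, and the other, STAT5B, is the main form in liver. Stat5a read 6.27, 6.43 and 5.96 in hypothyroid mutants and 7.01, 6.78 and 6.94 in euthyroid mutants. In hypothyroid controls it read 6.09, 6.14 and 5.86, and in euthyroid controls 6.77, 6.83 and 6.77. The groups were well separated by thyroid state, with a gap between 6.43 and 6.77. Stat5a fell by 0.69 ± 0.14 in mutants (adjusted p = 0.0261), by 0.76 ± 0.14 in controls (adjusted p = 0.0143) and by 0.72 ± 0.10 in the average (adjusted p = 0.000514, 1.65-fold lower). The average lost its call only on adjustment for array SD (-0.60, adjusted p = 0.0957). The call in mutants was lost without any 1 of euthyroid replicates 2 and 4 and hypothyroid replicates 5 and 7 (adjusted p up to 0.149), and that in controls without hypothyroid replicate 20 (adjusted p = 0.0827).

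Stat5b, its neighbour on the chromosome, read 7.12, 7.23 and 7.59 in hypothyroid mutants and 7.56, 7.39 and 7.45 in euthyroid mutants. In hypothyroid controls it read 6.78, 7.09 and 7.03, and in euthyroid controls 7.58, 7.28 and 7.30. Among controls the thyroid groups did not overlap, while among mutants 1 hypothyroid mouse (7.59) was the highest of all 12. The averaged difference was -0.29 ± 0.10 (95% interval -0.51 to -0.06, adjusted p = 0.109) and was not called, except after quantile normalization (-0.40, adjusted p = 0.0277). All 3 hypothyroid mutants lay above all 3 hypothyroid controls, by 0.35 ± 0.15, with an adjusted p of 0.442 and with 22.5% of all clusters not overlapping in that comparison. Without mutant hypothyroid replicate 7 that difference was 0.21 ± 0.15 (adjusted p = 0.853). The 2 STAT5 genes are close relatives, so probes could pick up both transcripts, which was not tested.

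Igfbp4, which encodes another IGF binding protein, read 10.66, 10.74 and 10.81 in hypothyroid mutants and 11.23, 11.41 and 11.44 in euthyroid mutants. In hypothyroid controls it read 11.05, 11.10 and 10.70, and in euthyroid controls 11.39, 12.02 and 11.62. The 6 hypothyroid mice (up to 11.10) stayed below the 6 euthyroid mice (from 11.23). Igfbp4 fell by 0.73 ± 0.16 in controls (adjusted p = 0.0397) and by 0.68 ± 0.11 in the average (adjusted p = 0.00277, 1.60-fold lower), while the difference in mutants, -0.62 ± 0.16, was not called (adjusted p = 0.0924). The call in controls was lost without control euthyroid replicate 14, the highest array for this gene, and without each of 10 other single arrays. The averaged call was lost only on adjustment for array SD (-0.46, adjusted p = 0.308).

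Igf1, the main hormone made by liver under growth hormone, had a smaller difference. Its signal was 9.49, 9.52 and 9.47 in hypothyroid mutants and 9.73, 9.93 and 10.05 in euthyroid mutants. Hypothyroid controls had 9.50, 9.51 and 9.19, and euthyroid controls 10.14, 9.59 and 10.16. The lowest euthyroid value, 9.59, was that of control replicate 14. Igf1 fell by 0.49 ± 0.11 in the average (adjusted p = 0.022, 1.40-fold lower). The differences within mutants (-0.41 ± 0.16, adjusted p = 0.243) and within controls (-0.56 ± 0.16, adjusted p = 0.117) were not called. Without control euthyroid replicate 14 the difference in controls was -0.75 (adjusted p = 0.0194). The averaged call did not survive leaving out any 1 of 4 arrays (euthyroid control 15, hypothyroid control 20, euthyroid mutant 4 and hypothyroid mutant 7), with adjusted p up to 0.0622, and was kept without both arrays at the ends of the SD range (-0.57, adjusted p = 0.0072). It was also lost on adjustment for array SD and when every cluster of the table was tested.

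Igfbp2, another abundant carrier gene, read 9.09, 10.13 and 10.26 in hypothyroid mutants and 10.92, 10.97 and 10.29 in euthyroid mutants. Hypothyroid controls read 9.35, 10.06 and 9.49, and euthyroid controls 10.41, 10.56 and 10.40. The highest hypothyroid mouse (10.26) and the lowest euthyroid mouse (10.29), both mutants, lay close together. Igfbp2 fell by 0.86 ± 0.19 in the average (adjusted p = 0.0168, 1.82-fold lower), and was called in neither genotype alone (-0.90 ± 0.27 in mutants, adjusted p = 0.15, and -0.82 ± 0.27 in controls, adjusted p = 0.188). The averaged call was lost without control hypothyroid replicate 17 (adjusted p = 0.0526), on adjustment for array SD (-1.18, adjusted p = 0.0957) and when every cluster of the table was tested.

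**Figure D2:**
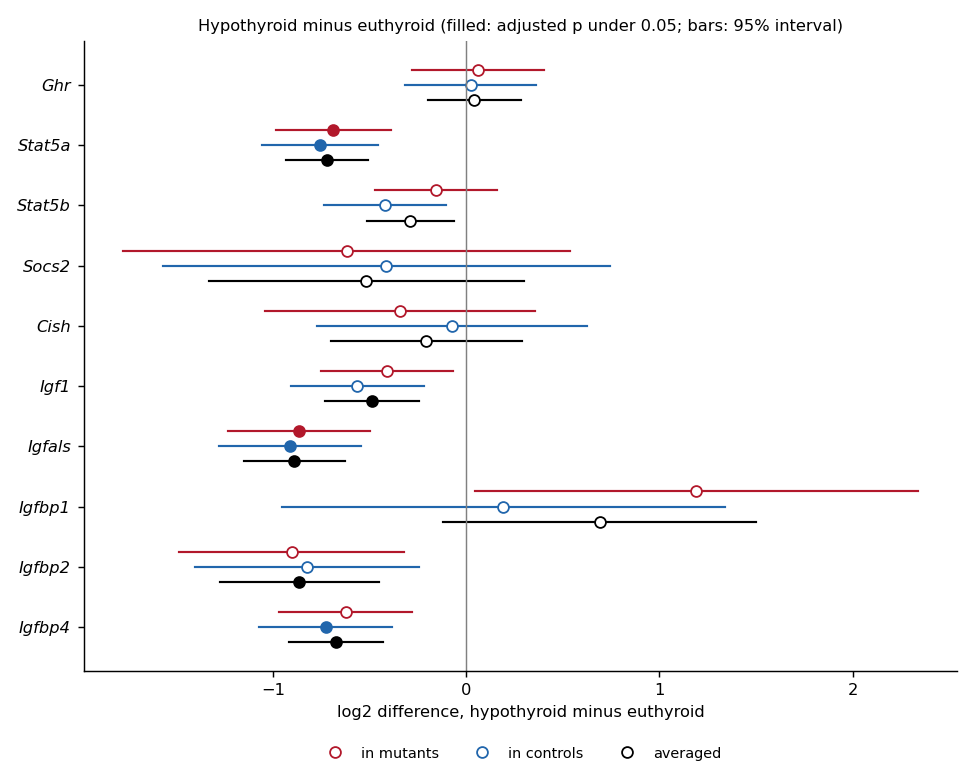
Log2 difference between hypothyroid and euthyroid mice (x axis) for each of the 10 genes (y axis), in mutants, in controls and averaged over genotypes. Points are limma estimates, bars their 95% intervals, and filled points passed an adjusted p of 0.05: Igfals and Stat5a in all 3 comparisons, Igfbp4 in controls and in the average, and Igf1 and Igfbp2 in the average.

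The receptor gene Ghr was not called in any comparison. It read 9.83, 9.95 and 10.02 in hypothyroid mutants and 9.79, 10.01 and 9.81 in euthyroid mutants, against 9.88, 9.96 and 9.93 in hypothyroid controls and 10.20, 9.49 and 10.01 in euthyroid controls. The groups overlapped throughout. The averaged thyroid difference was 0.04 ± 0.11, and its 95% interval ran from -0.20 to 0.28. The sign of so small a difference has no meaning, and it changed in 4 of 19 alternatives. The 4 group means of Ghr lay within 0.06 of each other, where the median such range over all clusters was 0.31. This closeness turned on control euthyroid replicate 14, the lowest array for Ghr. Without it the mutant difference in euthyroid mice was -0.23 ± 0.13 (adjusted p = 0.916) in place of -0.03 ± 0.16. The thyroid difference in controls was then -0.18 ± 0.13 (adjusted p = 0.757) in place of 0.02 ± 0.16.

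Socs2 and Cish, which growth hormone induces rapidly and whose products restrain the receptor, varied widely between mice of a group, and neither was called. Socs2 read 6.14, 7.85 and 6.92 in hypothyroid mutants and 7.79, 7.28 and 7.69 in euthyroid mutants. Hypothyroid controls read 5.53, 6.19 and 7.19, and euthyroid controls 7.45, 5.24 and 7.46. Control euthyroid replicate 14 was the lowest of all 12 for this gene, and it was also the lowest for Ghr. Its second cluster ranged with the first (Pearson's r = 0.958 over the 12 arrays, a description), so the wide spread was present in both. The averaged thyroid difference of Socs2 was -0.52 ± 0.38 (adjusted p = 0.419), and without control euthyroid replicate 14 it was -0.88 ± 0.30 (adjusted p = 0.107). The second cluster gave -0.39 ± 0.22 with all arrays (adjusted p = 0.293).

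Cish read 5.66, 6.20 and 4.71 in hypothyroid mutants and 6.23, 5.69 and 5.67 in euthyroid mutants, against 5.49, 5.83 and 5.57 in hypothyroid controls and 5.05, 5.79 and 6.26 in euthyroid controls. Its lowest mouse, mutant hypothyroid replicate 7, is the array with the highest SD. The averaged thyroid difference was -0.21 ± 0.23 (95% interval -0.70 to 0.29, adjusted p = 0.604). Without that array the average was -0.00412 ± 0.195 (adjusted p = 0.994).

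Igfbp1 read 7.88, 9.18 and 10.28 in hypothyroid mutants and 7.30, 7.80 and 8.68 in euthyroid mutants, against 7.68, 8.77 and 9.17 in hypothyroid controls and 9.21, 7.96 and 7.87 in euthyroid controls. The highest value again came from mutant hypothyroid replicate 7. The difference in mutants was 1.19 ± 0.54 (adjusted p = 0.302) and in controls 0.19 ± 0.54 (adjusted p = 0.915). Without mutant hypothyroid replicate 7 the difference in mutants was 0.61 ± 0.51 (adjusted p = 0.751) and the average 0.40 ± 0.34 (adjusted p = 0.559). Without control euthyroid replicate 14 the difference in controls was -0.00149 ± 0.609. With all arrays the average, 0.69 ± 0.38 (adjusted p = 0.272), was not called and was the one difference of the 10 beside that of Ghr with a positive sign.

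The spread between mice of the same group was wide for 4 of the 10 genes and narrower for the other 6. Pooled over the 4 groups, the SD of log2 signal was 0.886 for Socs2, 0.879 for Igfbp1, 0.517 for Cish and 0.419 for Igfbp2. These values lay at percentiles 99.9, 99.8, 99.0 and 97.8 of all clusters with 1 symbol, whose median was 0.193. The second Socs2 cluster had an SD of 0.493 (percentile 98.8). The other 6 genes lay between 0.155 for Stat5a and 0.228 for Igfals, at percentiles 28.1 to 68.0. For Socs2 and Igfbp1 the limma standard error of a group difference within 1 genotype was 0.54, and even the difference of 1.19 in Igfbp1 did not pass. That error uses a variance that limma draws toward those of the other clusters, and not the SD above alone. The labels do not give feeding state or time of day at collection.

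**Figure D3:**
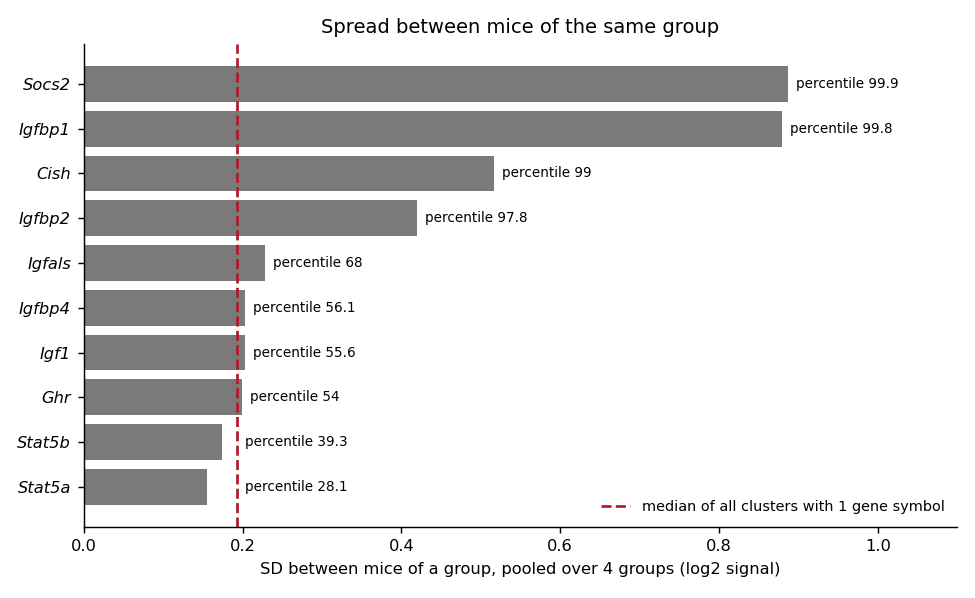
SD between mice of the same group, pooled over the 4 groups (x axis, log2 signal), for the 10 genes (y axis), with the percentile among all clusters with 1 gene symbol beside each bar. The dashed line is the median of those clusters, 0.193; Socs2, Igfbp1, Cish and Igfbp2 lie far to its right.

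No gene of the 10 was called for the NCoR mutation. In euthyroid mice limma called 0 of 10 (0 with an unadjusted p under 0.05), against 0.129% of all clusters. In hypothyroid mice it called 0 of 10 (1 with an unadjusted p under 0.05, Stat5b), against 0.262% of all clusters, and in the average 0 of 10 (1 with an unadjusted p under 0.05, Igfbp4), against 1.14%. These backgrounds also moved with single arrays: without control euthyroid replicate 13 the calls over all clusters were 192 in place of 28 in euthyroid mice and 1866 in place of 248 in the average. They were 6 without mutant euthyroid replicate 4 in euthyroid mice and 107 without control hypothyroid replicate 17 in the average, with 0 of the 10 genes called each time. An unadjusted p under 0.05 was found in 1771, 2267 and 3629 of the 21789 clusters in euthyroid mice, hypothyroid mice and the average. The median log2 difference of the 10 genes in the average was 0.05, and that of all clusters was -0.01. The largest averaged values were 0.77 ± 0.38 for Socs2 (95% interval -0.05 to 1.58, adjusted p = 0.327) and -0.27 ± 0.11 for Igfbp4 (-0.51 to -0.02, adjusted p = 0.262). The second Socs2 cluster gave 0.41 ± 0.22 (adjusted p = 0.369). The Socs2 value of 0.77 turned on control euthyroid replicate 14: without it the average was 0.40 ± 0.30 (adjusted p = 0.616), and the difference in euthyroid mice was 0.13 ± 0.44 in place of 0.87 ± 0.54. Without that replicate the Igfbp4 difference in euthyroid mice was -0.15 ± 0.15 in place of -0.32 ± 0.16. Its average was then -0.18 ± 0.10 (adjusted p = 0.4755). Kupffer cell markers moved in this comparison too, with a median difference of 0.51 over 10 markers, of which Adgre1 rose by 0.66, and their part in these values was not tested.

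For genes with a narrower spread, the intervals bound the mutant difference averaged over thyroid states. They do not bound the difference within 1 state, where intervals were wider (0.03 to 0.66 for Stat5b in hypothyroid mice). The averaged mutant difference of Igf1 was 0.01 ± 0.11 (95% interval -0.23 to 0.26), that of Ghr -0.01 ± 0.11 (-0.25 to 0.23), that of Stat5a 0.16 ± 0.10 (-0.06 to 0.37) and that of Igfals -0.23 ± 0.12 (-0.49 to 0.03). For Igf1 the interval excludes an averaged mutant difference of either sign as large as the 0.49 by which it fell in hypothyroid mice. In euthyroid mice alone the Igf1 difference was -0.06 ± 0.16, and -0.25 ± 0.14 without control euthyroid replicate 14. The mutants and controls overlapped in all 10 genes when thyroid states were pooled, where 1.05% of all clusters did not overlap. In the 5 genes that thyroid state separated, that state widens both pooled ranges, so overlap was nearly certain. All 10 also overlapped among euthyroid mice, where 10.4% of all clusters did not. Among hypothyroid mice all but Stat5b overlapped, where 22.5% did not. Overlap is thus what most clusters showed, and it does not bound a mutant difference. For Socs2 and Igfbp1 the averaged intervals were too wide for a statement like that on Igf1 (-0.73 to 0.89 for Igfbp1).

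**Figure D4:**
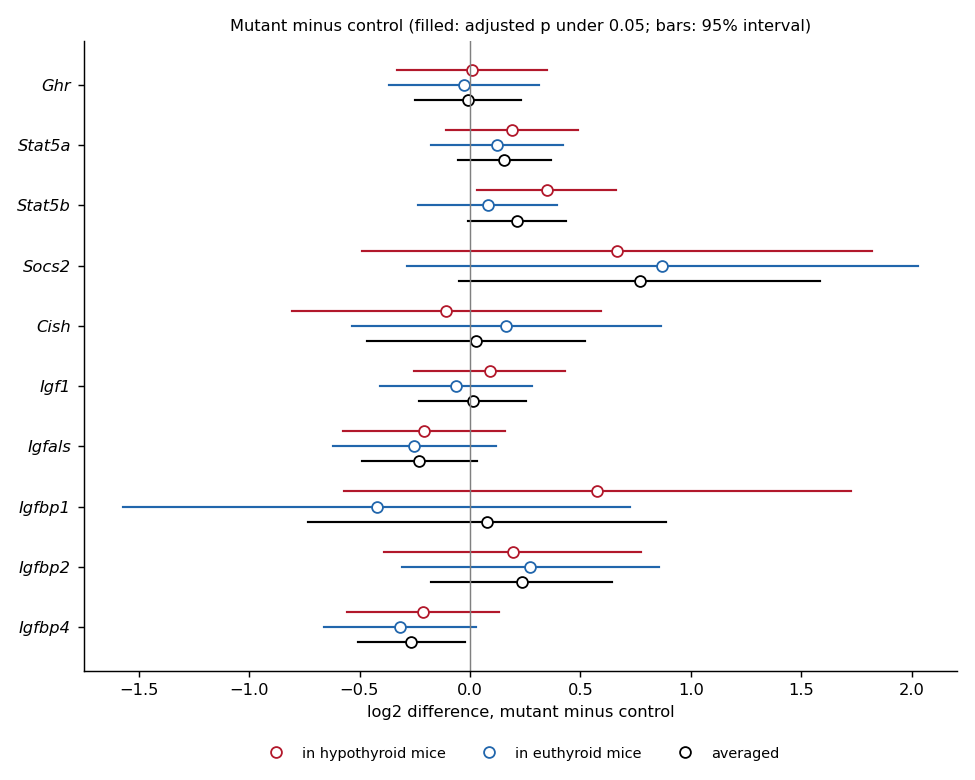
Log2 difference between mutant and control mice (x axis) for each of the 10 genes (y axis), in hypothyroid mice, in euthyroid mice and averaged over thyroid states. Points are limma estimates and bars their 95% intervals; all points are open because none passed an adjusted p of 0.05.

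Whether the thyroid response itself differed between genotypes was tested by the difference of the differences. None of the 10 genes was called (0 with an unadjusted p under 0.05), and none of all 21789 clusters was called (600 with an unadjusted p under 0.05), so the background share is 0%. Without control euthyroid replicate 13, 1 cluster was called. For Igfals this difference was 0.04 ± 0.24 (95% interval -0.48 to 0.56), for Stat5a 0.07 ± 0.20 (-0.35 to 0.49), for Igfbp4 0.10 ± 0.23 (-0.38 to 0.59) and for Igf1 0.15 ± 0.23 (-0.33 to 0.64). Igfbp1 had the largest value, 1.00 ± 0.76 (-0.62 to 2.62), which was 0.42 ± 0.69 without mutant hypothyroid replicate 7. Within 1 genotype, limma called 2 of 10 genes lower in mutants (Igfals and Stat5a), against 0.454% of all clusters, and 3 of 10 lower in controls (Igfals, Stat5a and Igfbp4), against 0.473%. In either genotype 1.11% of all clusters were called. Hypothyroid mice lay wholly below euthyroid mice in 5 of the 10 genes among mutants, against 11.1% of all clusters, and in 6 among controls, which adds Stat5b, against 7.88%.

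The order of the 4 group means was the same for Igfals and Igfbp4: lowest in hypothyroid mutants, then hypothyroid controls, euthyroid mutants and euthyroid controls. For Igfals the means were 7.61 ± 0.234, 7.82 ± 0.264, 8.48 ± 0.138 and 8.73 ± 0.254 in that order (SD, n = 3 each). Neighbours of the same thyroid state did not differ beyond their spread, and the step between hypothyroid controls and euthyroid mutants is the one at which the ranges part. Stat5a, Igf1 and Igfbp2 had hypothyroid controls lowest, followed by hypothyroid mutants. Over the 12 arrays Igfals and Igfbp4 correlated at r = 0.907, Igfals and Stat5a at 0.848, and Igf1 and Igfals at 0.785. With group means removed the same pairs gave 0.456, 0.531 and 0.248, all from the same 12 arrays and given as a description.

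Other genes of the pathway were taken from a list. Of 42 listed, 40 had a cluster of their own, and the others were not analysed here. In the thyroid comparison averaged over genotypes limma called 3 of the 40, 1 higher and 2 lower, against the 6.04% of all clusters. Igfbp7, which encodes an IGFBP-related protein with low affinity for IGF, lay at 7.78, 8.05 and 7.82 in hypothyroid mutants and 8.62, 8.61 and 8.49 in euthyroid mutants. It lay at 8.12, 8.01 and 7.95 in hypothyroid controls and 8.58, 8.53 and 8.43 in euthyroid controls. All hypothyroid mice were lower, and Igfbp7 fell by 0.59 ± 0.09 in the average (adjusted p = 0.000896) and by 0.69 ± 0.12 in mutants (adjusted p = 0.0112), the 1 call among the 40 within a genotype. The call in mutants was lost without mutant euthyroid replicate 2 or mutant hypothyroid replicate 5 or 7 (adjusted p up to 0.0664).

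Onecut1, the gene of a liver transcription factor that growth hormone regulates, averaged 6.22 ± 0.287 in hypothyroid mutants and 7.15 ± 0.495 in euthyroid mutants, and 6.25 ± 0.222 in hypothyroid controls and 7.13 ± 0.2 in euthyroid controls (SD, n = 3 each). It fell by 0.90 ± 0.16 in the average (adjusted p = 0.00337), and its adjusted p was 0.0507 after adjustment for array SD. Igf2r, whose product clears IGF2 and carries lysosomal enzymes, averaged 7.19 ± 0.155 in hypothyroid mutants and 6.74 ± 0.0931 in euthyroid mutants, and 7.22 ± 0.0628 in hypothyroid controls and 6.78 ± 0.252 in euthyroid controls. It rose by 0.44 ± 0.10 in the average (adjusted p = 0.0178), and the call was lost on adjustment for array SD (0.25, adjusted p = 0.604), without both arrays at the ends of the SD range (0.33, adjusted p = 0.0578), without hypothyroid mutant 7 and without hypothyroid control 17 (adjusted p up to 0.055). By group of the list, 0 of 7 genes of JAK2, its adaptors and phosphatases were called, 0 of 8 other SOCS and STAT genes, 2 of 11 other IGF ligands, binding proteins and receptors, 0 of 5 IGFBP proteases and their inhibitors, 0 of 4 growth hormone relatives and 1 of 5 STAT5-related factors. None of the 40 was called for the mutation in either thyroid state or in the average (limma, with 1, 5 and 4 at an unadjusted p under 0.05 in euthyroid mice, hypothyroid mice and the average). In the same order, 1771, 2267 and 3629 of the 21789 clusters had such a p, and 28, 57 and 248 were called.

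**Figure D5:**
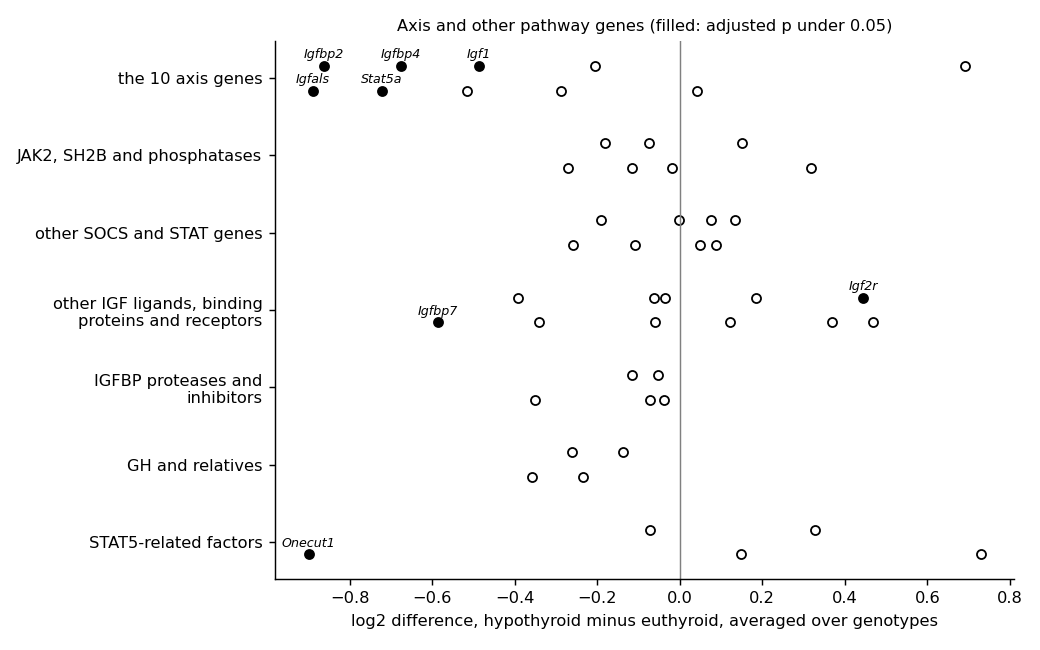
Log2 difference between hypothyroid and euthyroid mice averaged over genotypes (x axis) for the 10 axis genes and 40 other pathway genes, by group of the list (y axis). Each point is 1 gene, and filled, named points passed an adjusted p of 0.05; 5 of the 10 axis genes did, all lower, against 3 of the 40 others.

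Markers of other liver cells were set beside these values. Of 10 Kupffer cell and macrophage markers 3 fell with hypothyroidism in the average, namely Clec4f (-0.98), Cd5l (-0.85) and C1qc (-0.85), against 1.87% of all clusters called lower, and the list's median difference was -0.65. The mean log2 signal of the 10 markers was 5.47 to 6.31 in hypothyroid mutants and 6.28 to 7.26 in euthyroid mutants, and 5.42 to 5.59 in hypothyroid controls and 5.91 to 6.09 in euthyroid controls. The median difference was 0.11 for 8 hepatocyte markers, of which Ttr rose by 0.32, 0.03 for 8 stellate cell markers, 0.24 for 7 endothelial markers and -0.04 for 5 cholangiocyte markers, with no other call. B and T cell markers, of which 5 of 6 were measured, had a median of -0.21, and their mean signal lay between 3.22 and 3.71, below the median of every array. The Kupffer cell ranges of the thyroid groups overlapped narrowly in mutants (6.28 to 6.31) and were apart in controls. Array SD was on average higher in hypothyroid mice, with ranges that overlapped. After adjustment for array SD, 1 of the 5 axis genes kept its call (Igfals), where the calls over all clusters were 181 in place of 1317, and the part of the marker shift in the result was not tested.

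The clusters most like each gene were looked up among those at or above the median level, by Pearson's r over the same 12 arrays. The genes most like Igfals were Irf5 (0.978), Slc25a23 (0.939) and Rab43 (0.926). Those most like Stat5a were Mmd (0.964), Mgll (0.958) and again Rab43 (0.957). Igfbp4 ran closest to Nfix (0.941), Irf5 (0.939) and Dcakd (0.936), so that Igfals and Igfbp4 share a partner. For Igf1 they were Myo18a (0.926), Acnat1 (0.921) and Lin7a (0.92), and for Igfbp2 the desaturase gene Fads2 (0.916), the Kupffer cell marker Clec4f (0.909) and the acute phase gene Saa2 (0.868). Stat5b was most like Clcn4 (0.933), Sc5d (0.906) and Dlst (0.899). Among the genes without a thyroid call, Ghr ran with Txndc12 (0.953), Isca1 (0.93) and B230219D22Rik (0.925). Igfbp1 ran with Ip6k2 (0.935), Ccnc (0.877) and Mcc (0.861), Socs2 with Rit1 (0.893), Dapk1 (0.882) and Mppe1 (0.859), and Cish with Tubb1 (0.894), Tbxa2r (0.852) and Ptpn14 (0.831). The 99th percentile of r over the clusters searched was 0.66 for Cish and up to 0.829 for Stat5a, so high values are common with 12 arrays that share groups and arrays.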

How the data were processed

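Total liver RNA of 12 mice was hybridised to Affymetrix mouse Gene 1.0 ST arrays, 1 array per sample. The deposited values are log2 signals that the authors made by RMA (robust multi-array average), as the submitters' processing notes say without naming a version. The sources used here name no genome build, scan date or batch, and no batch could be tested. Nothing says whether the samples of a group are separate litters or cages. The p-values set group differences against the spread between samples of a group and treat these samples as independent. Litters or cages shared within a group could make them too small. The table held 35557 transcript clusters, of which 21789 had exactly 1 gene symbol in the platform annotation, and these were tested.

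All 12 arrays entered 1 model with a mean per group in limma 3.58.1 in R 4.3.3 (prior degrees of freedom 6.83, residual 8), two-sided, with Benjamini-Hochberg adjustment over all 21789 clusters, and calls at an adjusted p under 0.05. The fit was tested on simulated data. Standard errors and 95% intervals are those of the fit. No filter on level was used. Compared groups share arrays between comparisons: both thyroid differences and both mutant differences use the same 12 arrays. The genes, lists and tests were chosen with earlier results of these data known. The naming rule took all 10 genes, every called gene of the other pathway list, and the 3 clusters most correlated with each of the 10. Dio1, Xist, the Y-linked genes and albumin were chosen as checks outside that rule. The number of arrays limits the precision. Alternatives were quantile normalization, centring on array medians, a filter at the median level, all clusters of the table, the compared groups alone, array SD as a covariate, trended robust variances, and arrays left out.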

Additional observations from a re-analysis of the deposited data

How the results depend on the processing

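Among 70 differences of the 10 genes, 10 were called, and none of these changed sign under any alternative run. Of 50 differences that were not called and had an unadjusted p of 0.05 or above, 30 changed sign under at least 1 alternative and 0 were called under any. Of the other 10 uncalled differences, with an unadjusted p under 0.05, 0 changed sign and 3 were called under at least 1 alternative: Igfbp4 in mutants, Igf1 in controls and Stat5b in the thyroid average. The count of 5 genes lower in hypothyroid mice averaged over genotypes was 3 with every cluster of the table, 1 with array SD as a covariate, and 4 to 5 with each array left out. Calls over all clusters in those settings were 872, 181 and 680 to 3579, against 1317. The 2 calls in mutants became 0 with every cluster, with array SD and without control euthyroid replicate 14 and mutant hypothyroid replicate 7 together, and ranged between 0 and 3 with single arrays left out. Calls over all clusters there were 146, 36, 174 and 89 to 620, against 241. The 3 calls in controls became 1 with every cluster, 1 with the compared groups alone and 0 with array SD, and ranged between 0 and 3. Calls over all clusters there were 144, 135, 137 and 134 to 864, against 242. The cause of these changes was not tested. Of the 40 other pathway genes, the 3 averaged thyroid calls became 1 with array SD and ranged between 2 and 7 with single arrays left out, the highest without control euthyroid replicate 13. The 1 call in mutants became 2 after quantile normalization and with trended robust variances and 0 with array SD (0 to 2 with single arrays left out). The 0 in controls became 2 after quantile normalization and 1 with clusters above the median level (0 to 1). The 0 calls for the averaged mutant effect ranged up to 2. The 10 genes had 0 calls for the mutation and for its difference between thyroid states under every alternative run. No paired analysis was possible because the groups share no replicate numbers.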
